A study of Homo sapiens with 5 samples.

Results

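The footprints of 10 genes of cellular iron handling were followed in ribosome-footprint counts from HCT116, a human colorectal carcinoma cell line. Per the labels' protocols the footprints were made with MNase and taken from the monosome fraction of a sucrose gradient. They were SLC40A1, which encodes the iron exporter ferroportin, and 9 genes chosen for their function in iron uptake, storage, sensing and heme breakdown. SLC40A1 was selected on its counts in these libraries, for its loss in the mutant cells, so its own difference is described here without a test. The members were taken by gene symbol, and all 10 were found among the 17297 genes of the count table. Libraries came from 2 groups. The WT group (genotype labelled Wt, 2 libraries) was HCT116 with no edit named. The MUT group (genotype labelled eIF6-N106S, 3 libraries) came from HCT116 clones made homozygous by CRISPR/Cas9 for a serine in place of an asparagine of eIF6, a factor that keeps the large ribosomal subunit from joining the small one. The labels give no drug or other agent for either group. They do not give how many clones or cultures the libraries came from, so p-values rest on a spread between libraries that may be technical only, and the mutation cannot be told apart from other differences between these clones and the WT cells.

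Iron enters most cells bound to transferrin through the transferrin receptor, is reduced in endosomes and passes into the cytosol through a divalent metal transporter. Spare iron is stored inside ferritin shells, and ferroportin is the only known transporter that exports inorganic iron from vertebrate cells. A pair of iron regulatory proteins tie these steps together: in low iron they bind a hairpin, the iron-responsive element, in the 5′ UTR of ferritin and ferroportin mRNAs, where they block translation, and in the 3′ UTR of the transferrin receptor mRNA, where they protect it from decay. The duodenum, from which iron enters the body, is the gut segment best known for ferroportin.

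The sequences shown here are the promoter ends of the exporter and the main importer gene and an iron-responsive element of ferritin, taken from RefSeq windows of 250 bases before to 50 after each gene start on GRCh38.p14, where 8 of the 10 members had a window. The first pair are the 100 bases before the annotated start of the exporter gene SLC40A1 (chr2:189580787-189580886, minus strand) and of the importer gene TFRC (chr3:196082091-196082190, minus strand). Capitals mark TATAA, a core promoter motif, and in TFRC also ACGTG, the core of a hypoxia response element. The other is the end of the FTL window, bases 21 to 50 of the transcript (chr19:48965329-48965358, plus strand), shown because it holds the loop of the ferritin iron-responsive element, CAGTGN, in capitals.
SLC40A1: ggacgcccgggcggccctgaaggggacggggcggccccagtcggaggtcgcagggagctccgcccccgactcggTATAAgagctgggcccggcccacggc
TFRC: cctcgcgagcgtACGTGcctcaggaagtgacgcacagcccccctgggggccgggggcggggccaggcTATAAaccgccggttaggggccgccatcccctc
FTL: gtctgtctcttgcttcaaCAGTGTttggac
Both promoters held TATAA, which was found on either strand in 20.4% of all 35116 windows of this length. ACGTG was found in the TFRC window and not in the SLC40A1 window, against 21.4% of all windows. CAGTGN alone was found in 52.5% of windows. The antioxidant response core TGACNNNGC was in 13.3% of all windows and in none of the SLC40A1, TFRC and FTL windows.

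Library totals ran from 2095217 (WT replicate 1) to 3821176 counts (MUT replicate 3). Levels are given as CPM, each count relative to its library's total after scaling of the libraries to each other, so each change is relative to the other genes. RNA levels were not analysed here, so a footprint change is not split into mRNA and ribosomes per mRNA. Values after ± are SDs over 2 WT or 3 MUT libraries. EIF6 itself averaged 178 ± 9.16 CPM over the WT libraries and 157 ± 10.7 CPM over the MUT libraries, which does not check a change of a single amino acid. Of 8 colon epithelial markers, VIL1 had at most 1 count, and the others summed to between 1090 and 1470 CPM per library, most of it from the keratins KRT8, KRT18 and KRT19. EPCAM and CDH1, adhesion genes of epithelia, fell by 0.50 and 0.90 on the log2 scale, while KRT8 and KRT19 rose by 0.37 and 0.29 (edgeR, adjusted p 0.0087, 0.00741, 0.0199 and 0.0463). The 4 kept their direction in all 14 other fits, but the 4 calls ended without WT replicate 2, those of both keratins also with any of WT replicate 1, MUT replicate 1 or MUT replicate 2 left out, that of EPCAM also with MUT replicate 1 left out, and those of EPCAM and CDH1 with DESeq2. The KRT19 call also ended with libraries thinned to the smallest (edgeR, adjusted p 0.0569). Erythroid markers summed to 10.5 and 12.4 CPM in WT and 6.67 to 8.91 CPM in MUT, and macrophage markers to 4.49 and 1.96 CPM in WT and 5.79 to 8.21 CPM in MUT, mostly CD68. Hepatocyte and fibroblast markers summed to at most 2.05 and 9.22 CPM in any library. The erythroid, macrophage and fibroblast sums are of the order of the SLC40A1 level, and the part of these markers in the results was not tested.

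The exporter was the member that was missing in MUT. SLC40A1 is gene ID 30061 and lies on chromosome 2 at 189560590 to 189580786, as GRCh38.p14 places it. It had 12 and 15 counts in WT replicates 1 and 2, and 0 counts in each of the 3 MUT libraries. These are 5.99 and 4.90 CPM in WT and none in MUT, so every WT library lay above every MUT library. The 27 pooled WT counts correspond to 5.34 CPM, with an exact 95% Poisson interval of 3.52 to 7.76 CPM that covers counting error only. The 3 MUT libraries would together have held 57.8 counts at the WT level. A pooled count of 0 allows up to 3 counts, or 0.277 CPM, over the MUT libraries, so SLC40A1 was at least 19.3-fold lower in MUT than the pooled WT level, and at least 12.7-fold lower than the low end of the WT interval. SLC40A1 passed the filter on low counts through its WT libraries alone. Of 11153 genes with at least as many pooled WT counts as SLC40A1, 1 had 0 counts in every MUT library, SLC40A1 itself. In the other direction, 0 of the 11235 genes with at least that CPM in pooled MUT libraries had 0 counts in both WT libraries. SLC40A1 was picked for its loss in these libraries and set both cut-offs, so these counts are a description and no test. In pooled cells, fewer cells with ferroportin mRNA and fewer footprints per cell cannot be told apart.

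**Figure D1:**
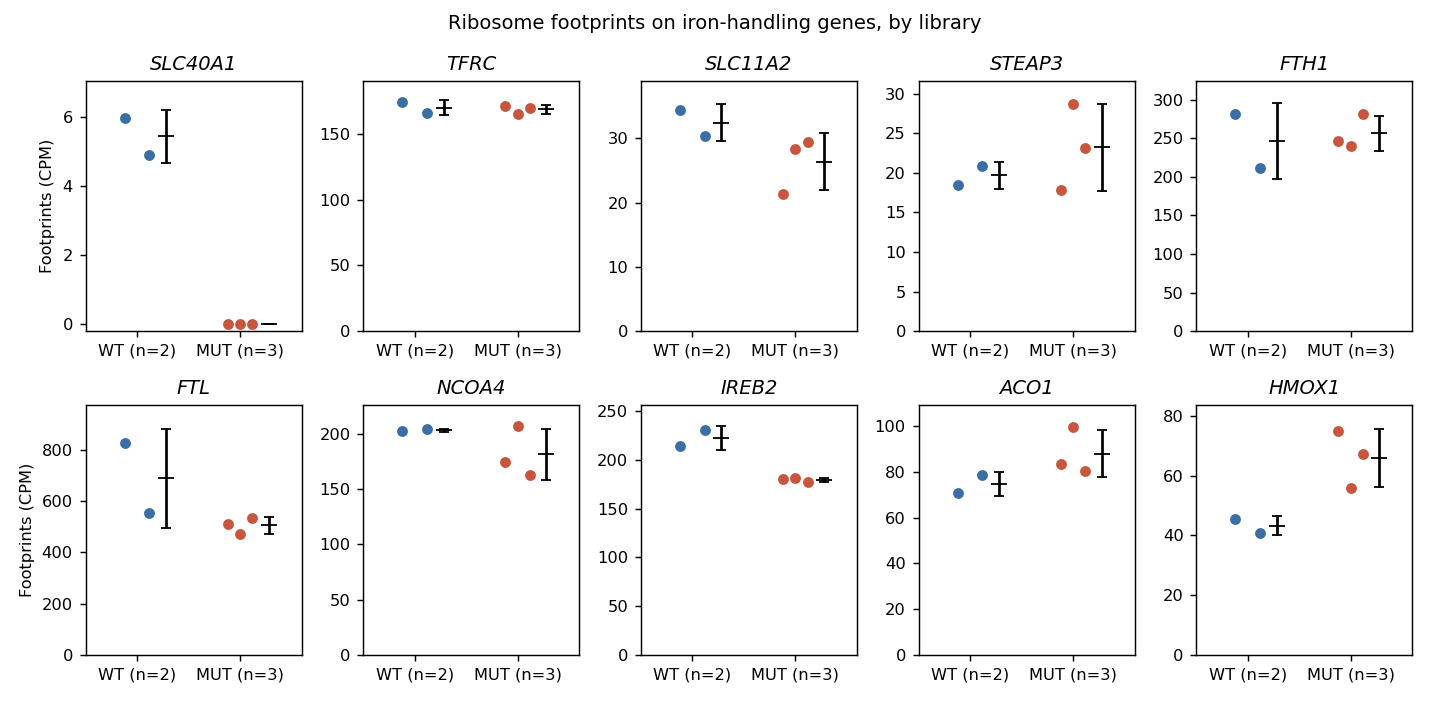
Footprint level (CPM, linear axes, each gene with its own scale) of the 10 members in 2 WT and 3 MUT libraries; each point is a library, and the bar beside the points gives the mean ± SD. SLC40A1 is at 0 in all MUT libraries, TFRC lies between 165 and 174 CPM in all 5, and the HMOX1 points of MUT all lie above those of WT.

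Of the 9 other members, 1 rose, 2 fell and 6 did not pass edgeR's quasi-likelihood test at an adjusted p under 0.05. Over all 11991 genes tested, 22.9% passed, 10% as higher and 12.9% as lower, and 9 members are too few to compare their shares with these. Of all calls, 43.8% were higher, against 62.8% with library size only and 56.3% with upper-quartile scaling, so the balance of higher and lower genes turned with the scaling. The median log2 fold change of the 9 (MUT over WT) was -0.01, against 0 for all genes. WT and MUT libraries did not overlap for 5 of the 9 members, where 50.7% of all tested genes showed such a gap. All MUT libraries lay above all WT libraries for 2 of them (25.4% of all genes) and below for 3 (25.3%).

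The uptake genes TFRC, SLC11A2 and STEAP3 did not pass the test. TFRC, the transferrin receptor (gene ID 7037, chromosome 3, 196049284 to 196082090), had 174 and 166 CPM in WT and 171, 165 and 170 CPM in MUT. The groups overlapped, and the log2 fold change of -0.01 had a 95% interval of -0.20 to 0.18 (edgeR, adjusted p 0.956). Its sign was positive with library size only (0.06) and with upper-quartile scaling (0.04). SLC11A2, the divalent metal transporter that moves endosomal iron into the cytosol, had 34.5 and 30.4 CPM in WT and 21.3, 28.4 and 29.5 CPM in MUT. All MUT values lay below both WT values, with MUT replicate 1 lowest, and the log2 fold change of -0.27 (95% interval -0.65 to 0.10) did not pass (edgeR, adjusted p 0.29). STEAP3, the reductase that makes endosomal iron ready for that transporter, had 18.5 and 20.9 CPM in WT and 17.8, 28.7 and 23.1 CPM in MUT. MUT replicate 2 was the highest library and MUT replicate 1 the lowest, and the log2 fold change was 0.23 (95% interval -0.21 to 0.68, edgeR adjusted p 0.465).

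Of the ferritin chains, the light one fell. FTL, the light chain of the storage shell (gene ID 2512, chromosome 19, 48965309 to 48966879), had 827 and 553 CPM in WT and 512, 471 and 536 CPM in MUT. Its log2 fold change was -0.44 (SE 0.12, edgeR adjusted p 0.0102), with all 3 MUT libraries below both WT libraries. WT replicate 1 stood far above the other 4 libraries, and without it the log2 fold change was -0.13 (edgeR, adjusted p 0.399). Leaving out WT replicate 2 instead made it -0.70. DESeq2 gave FTL an adjusted p of 0.179, and without MUT replicate 1 edgeR gave 0.0601. FTH1, the heavy chain that carries the iron-oxidising site (gene ID 2495, chromosome 11, 61964285 to 61967634), had 281 and 212 CPM in WT and 247, 240 and 282 CPM in MUT. The groups overlapped, and its log2 fold change of 0.07 (95% interval -0.16 to 0.29) did not pass (edgeR, adjusted p 0.693). FTH1 was also higher in WT replicate 1 than in WT replicate 2, and its log2 fold change was 0.27 when WT replicate 1 was left out and -0.13 when WT replicate 2 was. Both ferritin genes have many processed pseudogenes, and the handling of reads with several map positions is unstated, so their counts are uncertain. NCOA4, the receptor that brings ferritin to lysosomes for iron release, had 202 and 204 CPM in WT and 174, 207 and 163 CPM in MUT. MUT replicate 2 lay above both WT libraries and the other MUT libraries below them, with a log2 fold change of -0.16 (95% interval -0.37 to 0.05, edgeR adjusted p 0.271).

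The ratio of 2 genes within a library does not depend on how libraries are scaled. For each library, the FTH1 count divided by the FTL count was 0.34 and 0.384 in WT and 0.482, 0.51 and 0.527 in MUT. The mean ratio was 0.362 ± 0.0308 over WT and 0.506 ± 0.0227 over MUT libraries, and the groups did not overlap. The difference of 0.144 between the means was 0.123 without WT replicate 1. The two-sided exact permutation test over libraries returned p = 0.1, the smallest that 2 against 3 libraries can give. A ratio does not show which of its genes changed.

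Of the iron regulatory protein genes, IREB2 fell and ACO1 did not pass. IREB2, which encodes IRP2, the regulator that is degraded when iron is plentiful (gene ID 3658, chromosome 15, 78437431 to 78501453), had 214 and 231 CPM in WT and 180, 181 and 177 CPM in MUT. All MUT libraries lay below both WT libraries and close to each other, and IREB2 fell by 0.32 on the log2 scale (SE 0.0918, edgeR adjusted p 0.0147). The call ended with library size only (adjusted p 0.0542), with thinned libraries (0.0549), and when WT replicate 2 (0.155) or MUT replicate 1 (0.0619) was left out. ACO1, which encodes IRP1, an aconitase that turns into an RNA-binding protein when it loses its iron-sulfur cluster (gene ID 48, chromosome 9, 32384643 to 32454769), had 70.9 and 78.5 CPM in WT and 83.7, 99.8 and 80.6 CPM in MUT. All MUT libraries lay above both WT libraries, but the log2 fold change of 0.23 (95% interval -0.02 to 0.48) did not pass (edgeR, adjusted p 0.181). The IREB2 count divided by the ACO1 count was 3.02 and 2.94 in WT and 2.15, 1.82 and 2.19 in MUT, so the groups did not overlap. Its mean was 2.98 ± 0.0562 over WT and 2.05 ± 0.206 over MUT libraries, with p = 0.1 in the exact permutation test. The other two ratios computed set FTL as the denominator. TFRC over FTL was 0.211 and 0.3 in WT and 0.318 to 0.349 in MUT, and HMOX1 over FTL was 0.055 and 0.0739 in WT and 0.119 to 0.146 in MUT. All 4 ratios were chosen after their genes' values were seen, each had p = 0.1 in the exact permutation test, and the Benjamini-Hochberg value over the 4 was 0.1.

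**Figure D2:**
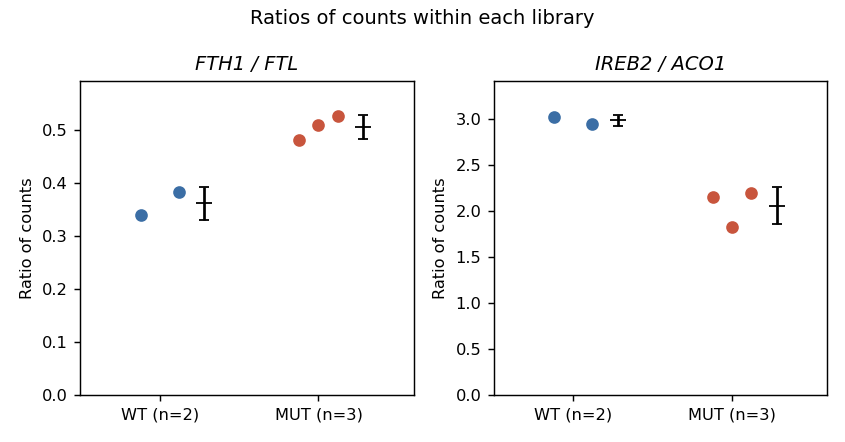
Ratio of the raw counts of 2 genes within each library (linear axes from 0), FTH1 over FTL and IREB2 over ACO1, for 2 WT and 3 MUT libraries; points are libraries and bars are mean ± SD. FTH1 over FTL is at most 0.384 in WT and at least 0.482 in MUT, and IREB2 over ACO1 is at least 2.94 in WT and at most 2.19 in MUT.

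HMOX1 was the member that rose. It encodes heme oxygenase 1, the inducible enzyme that opens the heme ring and frees its iron (gene ID 3162, chromosome 22, 35381096 to 35394207). Its level was 45.4 and 40.9 CPM in WT and 75.1, 55.8 and 67.2 CPM in MUT. Every MUT library lay above both WT libraries, and the level was 1.53-fold higher in MUT (log2 fold change 0.62, SE 0.146, edgeR adjusted p 0.00382). Without WT replicate 2 the log2 fold change was 0.54 and the call ended (edgeR, adjusted p 0.102).

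**Figure D3:**
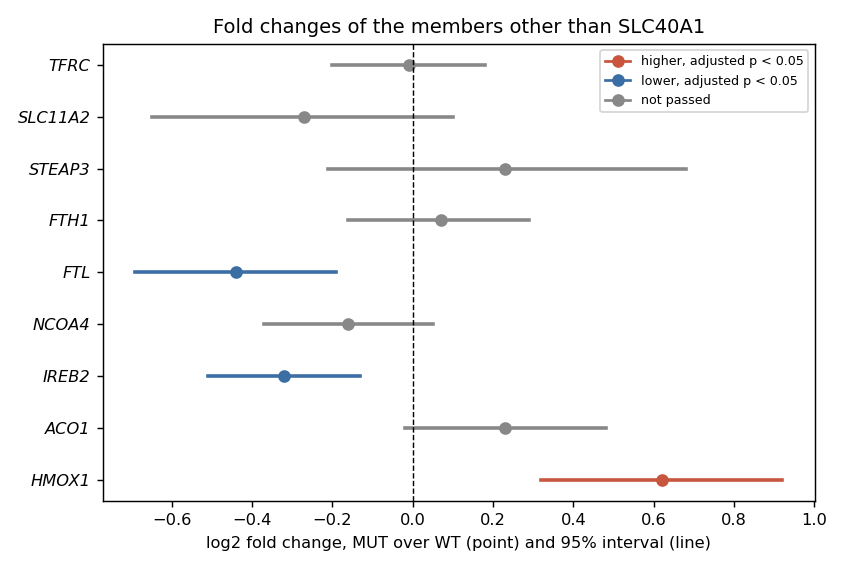
Log2 fold change of MUT over WT (points) with 95% intervals (lines) from edgeR for the 9 members other than SLC40A1, fitted over 2 WT and 3 MUT libraries. HMOX1 is higher at 0.62, FTL and IREB2 are lower at -0.44 and -0.32, and the intervals of the other 6 include 0.

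The members were set in 6 wider lists of iron genes. Of the 104 listed genes other than SLC40A1, the 9 other members included, 100 were in the table and 91 were tested, and 11 of these rose and 13 fell. Without the members 82 were tested, of which 10 rose, 11 fell and 61 did not pass. The median log2 fold change of these 82 was -0.02, and their calls were 10 of 82 higher and 11 of 82 lower beside 10% and 12.9% of all genes. Of the 91, library size only gave 13 higher and 10 lower, beside 14.6% and 8.67% of all genes. DESeq2, which gave an adjusted p for 86, called 5 higher and 8 lower, beside 4.9% and 7.99% of all genes. edgeR was also run with one library left out at a time. There were 5 higher and 6 lower with WT replicate 1 out (5.22% and 8.43% of all genes), 6 and 9 with WT replicate 2 out (4.12% and 5.93%), and 8 and 8 with MUT replicate 1 out (6.04% and 7.6%). With MUT replicate 2 out there were 8 and 12 (8.78% and 10.9%), and with MUT replicate 3 out 7 and 13 (9.17% and 11.3%).

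Among 13 tested genes of iron import and reduction, 1 rose and 1 fell, where 10% of all genes rose and 12.9% fell. CYBRD1, a plasma membrane ferric reductase known from the duodenum, had 37.5 and 29.8 CPM in WT and 18.8, 19.5 and 20.8 CPM in MUT, 1.68-fold lower (edgeR, adjusted p 0.00489). Without WT replicate 1 its adjusted p was 0.0723. TFR2, a second transferrin receptor that senses iron in liver, went from 12.4 ± 1.94 to 20.3 ± 1.92 CPM, 1.62-fold higher (edgeR, adjusted p 0.0321). That call ended in 7 of 14 other fits, among them DESeq2 (0.166) and the fit without WT replicate 1 (0.172), and also with WT replicate 2, MUT replicate 2 or MUT replicate 3 left out. In the export list, 8 genes other than SLC40A1 were tested, of which BMPR1A and NFE2L2 fell and MTF1 rose (12.9% and 10% of all genes). BMPR1A, a receptor for bone morphogenetic proteins, had 103 and 79.1 CPM in WT and 62.3, 47.7 and 54.7 CPM in MUT, and its log2 fold change was -0.72 (edgeR, adjusted p 0.00059). NFE2L2 encodes NRF2, a factor that activates HMOX1, ferritin and ferroportin genes, and went from 322 ± 20 CPM to 246 ± 11.4 CPM, a log2 fold change of -0.39 (edgeR, adjusted p 0.00357). MTF1, a metal-responsive activator known to act on the ferroportin gene, went from 72.4 ± 3.5 CPM to 98.8 ± 1.07 CPM, 1.36-fold higher (edgeR, adjusted p 0.00581). Without WT replicate 2 the NFE2L2 call ended (adjusted p 0.0659), and without WT replicate 1 the MTF1 call did (0.0565). BACH1, the repressor that heme removes from HMOX1 and ferroportin promoters, had a log2 fold change of -0.13 (95% interval -0.35 to 0.09) and was named after its value was seen. The export partners HEPHL1 and CP had at most 2 counts in any library.

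Of 8 tested genes of storage, release and iron chaperones, 1 rose and 2 fell (10% and 12.9% of all genes). PCBP4, a poly(C)-binding protein, went from 32 ± 1.34 CPM to 51.2 ± 6.22 CPM, 1.6-fold higher (edgeR, adjusted p 0.00294), and lost its call without WT replicate 2 (0.068). PCBP2, which delivers iron to ferritin, had 525 and 460 CPM in WT and 396, 396 and 411 CPM in MUT, 1.23-fold lower (edgeR, adjusted p 0.0271). PCBP2 lost its call in 6 of 14 other fits, among them library size only (0.0794) and those leaving out WT replicate 1, MUT replicate 1 or MUT replicate 2. FTL was the other gene that fell.

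The list of iron regulatory proteins, the ligase that degrades IRP2 and other mRNAs with an iron-responsive element had 10 tested genes, of which 0 rose and 3 fell, where 10% and 12.9% of all genes did. DESeq2 and limma-voom also called 0 higher (4.9% and 8.56% of all genes). These fits share the same libraries, and 10 genes are too few to compare their shares with those of all genes. Besides IREB2 the genes that fell were SKP1 and RBX1, common subunits of the ligase. Their log2 fold changes were -0.51 and -0.28 (edgeR, adjusted p 0.000487 and 0.0467). SKP1 kept its call in all 14 other fits, and RBX1 lost it in 8, among them those leaving out either WT library, MUT replicate 1 or MUT replicate 2. Not every subunit of the ligase was lower, as CUL1, named after its value was seen, was not. CUL1 levels were 105 and 141 CPM in WT and 115, 141 and 123 CPM in MUT, so the groups overlapped. Its log2 fold change of 0.03 did not pass (edgeR, adjusted p 0.897). FBXL5, the subunit that recognises IRP2 and senses iron, was also named after its value was seen. It had 60.9 and 70.3 CPM in WT and 58.2, 55.8 and 51.6 CPM in MUT, and its log2 fold change of -0.26 did not pass (edgeR, adjusted p 0.139).

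Of 22 tested heme genes 4 rose and 1 fell (10% and 12.9% of all genes). ALAS1, the rate-limiting enzyme of heme synthesis outside red cells, had 88.9 and 91.2 CPM in WT and 148, 161 and 158 CPM in MUT. It was 1.73-fold higher (SE 0.102 on the log2 scale, edgeR adjusted p 9.99e-06), and its call held in all 14 other fits. CPOX, a later enzyme of the same pathway, had 409 and 403 CPM in WT and 279, 315 and 292 CPM in MUT, and its log2 fold change of -0.46 also kept its call in all 14 (edgeR, adjusted p 0.00106). The other 2 that rose besides HMOX1 act in heme breakdown. BLVRB, a biliverdin reductase, was 1.31-fold higher and HMOX2, the constitutive heme oxygenase, 1.29-fold higher (edgeR, adjusted p 0.0108 and 0.0159), and each lost its call in 3 other fits, with DESeq2, without MUT replicate 1, and without WT replicate 2 (BLVRB) or WT replicate 1 (HMOX2). The second biliverdin reductase gene of the list, BLVRA, was among those that did not pass.

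Of 30 tested genes of iron-sulfur cluster assembly 4 rose and 4 fell (10% and 12.9% of all genes). MMS19, a part of the cytosolic targeting complex that hands clusters to their target proteins, went from 43.1 ± 1.84 CPM to 66.3 ± 2.76 CPM, 1.54-fold higher (edgeR, adjusted p 0.00151). The genes CIAO2A (1.34-fold lower), FDX1 (1.38-fold lower) and ISCA2 (1.48-fold lower) fell, with edgeR's adjusted p at 0.00782, 0.0134 and 0.0185. They encode a cytosolic targeting factor known to stabilise IRP2 and mature IRP1, a mitochondrial ferredoxin and a mitochondrial late-acting assembly factor. CIAO2A had 201 and 160 CPM in WT and 129, 123 and 150 CPM in MUT, with a log2 fold change of -0.26 and no call when WT replicate 1 was left out (edgeR, adjusted p 0.172), nor when MUT replicate 1 was (0.0535). FDX1 lost its call in 3 other fits (DESeq2, and WT replicate 2 or MUT replicate 1 left out), and ISCA2 in 5 (DESeq2, thinned libraries, and either WT library or MUT replicate 3 left out). FDX2, NUBP2 and CIAO3 were the other genes that rose and CISD2 the other that fell, with log2 fold changes of 0.70, 0.43, 0.46 and -0.42, and these 4 were named after their values were seen. Each of the 4 lost its call in at least 4 of 14 other fits, those with DESeq2, without WT replicate 1 and without MUT replicate 3 among them.

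**Figure D4:**
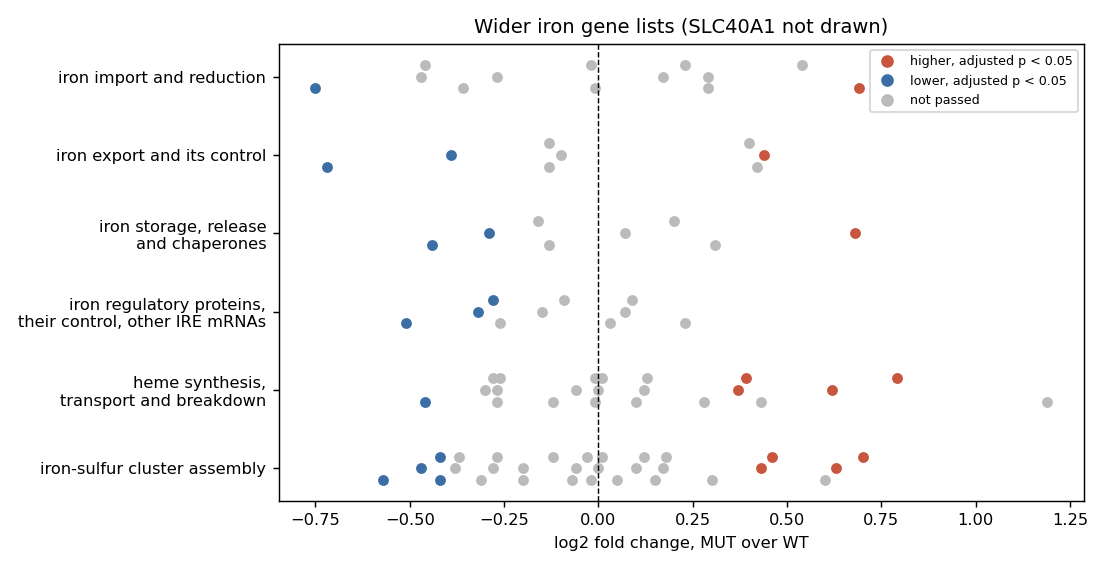
Log2 fold change of MUT over WT for the tested genes of the 6 iron lists; each point is a gene, coloured where its adjusted p in edgeR was under 0.05 (red higher, blue lower), and SLC40A1 is left out. Higher and lower genes occur in 5 of the 6 lists, and the list with IREB2 has 3 lower genes and none higher.

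The tested genes around SLC40A1 on chromosome 2 had footprints in every MUT library. Within 1 Mb, between lower RefSeq coordinates, 15 other genes were in the table and 11 were tested, of which 0 rose and 5 fell (10% and 12.9% of all genes). The 4 others, COL3A1, ANKAR, MSTN and LOC124906109, had at most 8 counts in any library, and COL3A1 had 0 in every MUT library and 1 in WT. In edgeR 1 was higher at an unadjusted p under 0.05, INPP1, named after its value was seen, and DESeq2 and limma-voom called 0 higher. No tested neighbour had fewer than 15 counts in a MUT library. The nearest tested gene on one side, WDR75, a nucleolar protein, had a log2 fold change of 0.17 (95% interval -0.02 to 0.37). The nearest on the other side, ASNSD1, went from 117 ± 2.31 CPM to 90.5 ± 5.71 CPM (log2 fold change -0.37, edgeR adjusted p 0.0135). ASDURF, which shares its start with ASNSD1 so that their counts may not be independent, had a log2 fold change of -0.59, OSGEPL1 -0.50, the mismatch repair gene PMS1 -0.53 and HIBCH, an enzyme of valine breakdown, -0.47. For these 4 the adjusted p in edgeR lay between 0.0013 (PMS1) and 0.0227 (OSGEPL1). The 5 that fell all lay on the same side, 101 to 629 kb away, and none fell 2-fold. Most tested neighbours lay on that side, as COL5A2 and WDR75 were the only tested genes on the other. DESeq2 called 1 of the 11 as lower, PMS1, beside 7.99% of all genes. With MUT replicate 1 left out edgeR called 3, beside 7.6% of all genes. Of 14 other fits, PMS1 lost its call in 1, ASDURF in 2, ASNSD1 and HIBCH in 3 each, and OSGEPL1 in 5.

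**Figure D5:**
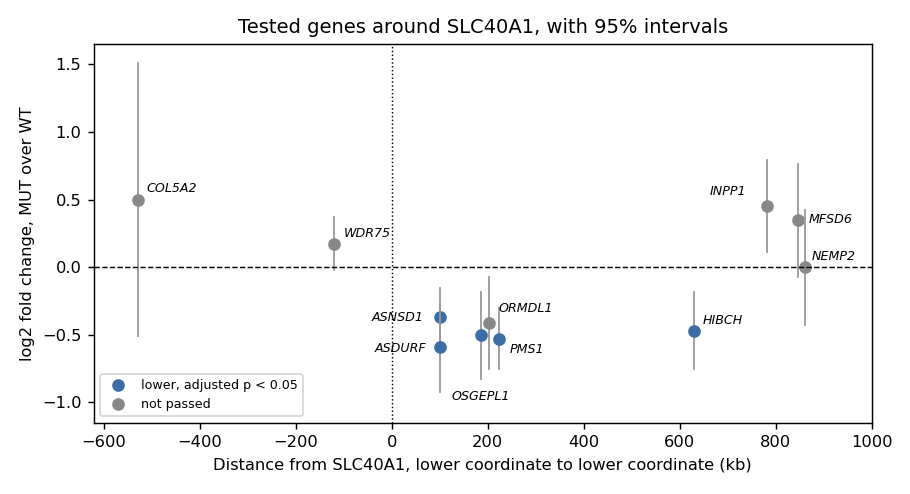
Log2 fold change of MUT over WT (points, with 95% intervals from edgeR) for the 11 tested genes within 1 Mb of SLC40A1, against the distance of their lower coordinate from that of SLC40A1 in kb. The 5 blue genes, lower at an adjusted p under 0.05, lie 101 to 629 kb away at log2 fold changes from -0.59 to -0.37.

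The genes whose library pattern lay closest to that of SLC40A1 were CSTA, VASP, IL32, NREP and PCDH7. Likeness was the Euclidean distance between log2 CPM profiles centred on each gene's mean (prior count 2) over the 5 libraries, and the distances ran from 0.653 (CSTA) to 0.913 (PCDH7). CSTA, a protease inhibitor of epithelia, had WT counts of 37 and 55 and MUT counts of 3, 7 and 3. IL32, a cytokine gene, had WT counts of 12 and 20, close to those of SLC40A1, and MUT counts of 0, 2 and 2. NREP went from 37 and 53 to 11, 7 and 7 counts. VASP, an actin regulator, and PCDH7, an adhesion protein, kept at least 38 and 54 counts in every MUT library. Since these genes were picked for their fall in the same libraries, their differences carry no test here.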

How the data were processed

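Ribosome-protected fragments were sequenced from 5 libraries. The deposited values are raw counts per gene, not normalized by the authors; per the submitters' processing notes FastQC 0.12.1, cutadapt 4.6, STAR 2.5.2b, DESeq2 1.42.0 and hg38 were used, with counter, annotation and strandedness not given in the sources used here. The header's first names are joined by blanks, so its names were split at white space. Genes were matched by symbol to GRCh38.p14 (17077 matched, 220 did not).

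In R 4.3.3, edgeR 4.0.16 kept genes by filterByExpr (minimum count 10, total 15), scaled by TMM and compared MUT with WT over all libraries by its quasi-likelihood test, with Benjamini-Hochberg adjustment over all 11991 genes. The fit was also run on counts simulated with the same dispersion for all genes and no differences between clones. That run does not bear on how stable the calls are here. Standard errors come from the F statistic; intervals are 95%. Alternatives were other scalings, DESeq2 1.42.0, limma-voom (limma 3.58.1), other count filters, thinning, a replicate block and leaving out each library. A strict filter took 30 counts in 2 libraries and a mean of 10 CPM. Intervals and floors (3 counts, pooled over MUT) cover counting error only. Members and lists were chosen with earlier results of these data known. Named genes were the members, up to 4 with the lowest p among the calls of each list, the 5 nearest to SLC40A1 in pattern and the called neighbours within 1 Mb.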

Additional observations from a re-analysis of the deposited data

How the results depend on the processing

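With 0 MUT counts, the SLC40A1 difference equals its WT level under any setting, so the alternatives say nothing of its stability. Of the 9 other members, those called higher (1) numbered 0 to 1 when single libraries were left out and 2 with the replicate block; those called lower (2) numbered 0 to 2 when libraries were left out and 1 with library size only, DESeq2 or thinned libraries. Wider iron genes called, without SLC40A1, were 7 to 8 higher (11) and 8 to 13 lower (13) when single MUT libraries were left out. DESeq2 called 5 and 8 of them. Of all genes, the same MUT fits called 6.04 to 9.17% higher (10%) and 7.6 to 11.3% lower (12.9%), and DESeq2 4.9% and 7.99%. Library size only called 14.6% and 8.67% of all genes, and thinned libraries 8.95% and 11.5%. Neighbours called lower (5) were 0 to 5 without single libraries and 1 with DESeq2; 1 was called higher (0) with upper-quartile scaling, library size only, no count filter, the strict filter or the replicate block, and 0 to 1 without single libraries.

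Log2 fold changes with a changed call or sign were: FTL -0.44 with DESeq2 and -0.70 to -0.13 without single libraries; IREB2 -0.24 with library size only, -0.27 thinned and -0.37 to -0.25 without single libraries; HMOX1 0.52 to 0.73 and FTH1 -0.13 to 0.27 without single libraries; TFRC 0.04 (upper quartile), 0.06 (library size only), 0 (either count filter) and -0.04 to 0.02 without single libraries. The replicate block used only the 4 libraries with shared numbers, so it also left out MUT replicate 3. The block called ACO1 higher (0.30, edgeR adjusted p 0.0311, against 0.103 in the same libraries without the block). With SLC40A1 not counted, 14 wider iron genes were called higher and 20 lower with the block, and 7 and 13 without it. Of all genes, 12.9% were called higher and 16.1% lower with the block, and 9.17% and 11.3% in the same libraries without it. The cause of these changes was not tested. Same-numbered libraries were not shown to be paired: their deviations correlated at 0.0793 and 0.148. Counts as low as those of SLC40A1 limit its fold to a bound.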
